A study of Mus musculus with 12 samples.

Results

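The genes described here are 10 components of the presynaptic active zone and its synaptic vesicle priming machinery: the priming genes Unc13a, Unc13b and Unc13c, the RIM genes Rims1, Rims2 and Rims3, the scaffold genes Bsn and Pclo, and the release site genes Erc2 and Ppfia2. They were chosen by name and are 10 of 24590 genes listed in any library. All 10 were listed in all 12 libraries and passed the filter of a mean of at least 1 FPKM, a fragment count corrected for transcript length and library total. Unc13c was picked as lower in the exon 7 knockout, so its difference there is given as a description. It had a mean deposited value of 3.37 FPKM in exon 7 mice and 1.03 FPKM in exon 6-7 mice. Its mean over all 12 mice, 2.20 FPKM, thus came mostly from the exon 7 line. The exon 6-7 mice lay only just above the filter value.

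The data are poly(A) RNA-seq of hippocampus from 12 male mice, 3 per group. The groups were Shank2 knockouts lacking exon 7 (KO969, KO990 and KO994), their wild-type littermates (WT628, WT993 and WT999), Shank2 knockouts lacking exons 6 and 7 (KO776, KO777 and KO864) and the wild-type littermates of that line (WT778, WT809 and WT865). Shank2 is a scaffold protein of the postsynaptic density of excitatory synapses. All mice had a mixed C57BL/6J and C57BLl/6N background, spelled as in the labels, and the labels give an age of 8 to 15 weeks for the behavioural experiments. The 4 hippocampal principal neuron markers summed to between 1010 and 1645 scaled FPKM in every library. WT865 stood apart in choroid plexus markers, and WT628 in several cerebellar markers. The choroid plexus sum was 6748 to 8428 in exon 6-7 knockouts and 42.4 to 8632 in exon 6-7 wild types. The deposited values are gene-level FPKM and depth is unknown. Scaled FPKM below are these values divided by 1 factor per library.

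An action potential releases transmitter only from vesicles that have been docked and primed at the active zone. Proteins of the Unc13 family, known as Munc13 in mammals, open syntaxin and so prime vesicles for fusion. The long RIM proteins of Rims1 and Rims2 bind Rab3 on the vesicle, recruit calcium channels and activate Munc13. Bassoon and piccolo are giant scaffold proteins that organise the site. ELKS proteins and liprin-alpha proteins tie these components together. In the hippocampus Unc13a provides most priming at glutamatergic synapses, Unc13b is used at a subset of synapses, and Unc13c is best known from cerebellar granule cells.

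The start regions of Unc13a, Unc13b and Unc13c are shown because they differ in letters. A link between these letters and the levels of the genes was not tested. Each sequence is RefSeq's on GRCm38.p6, running from 250 bases before to 50 bases after the annotated start, 5′ to 3′ on the gene's own strand, with CG dinucleotides in capitals. The windows are chr8:71671708-71672007 on the minus strand for Unc13a, chr4:43058703-43059002 on the plus strand for Unc13b and chr9:73968988-73969287 on the minus strand for Unc13c. The start used for Unc13c lies 71 bases from the start of the gene as placed below, against 0 bases for Unc13a and Unc13b. The Unc13c window therefore lies outside that gene span, and the 3 windows are not placed alike.
Unc13a: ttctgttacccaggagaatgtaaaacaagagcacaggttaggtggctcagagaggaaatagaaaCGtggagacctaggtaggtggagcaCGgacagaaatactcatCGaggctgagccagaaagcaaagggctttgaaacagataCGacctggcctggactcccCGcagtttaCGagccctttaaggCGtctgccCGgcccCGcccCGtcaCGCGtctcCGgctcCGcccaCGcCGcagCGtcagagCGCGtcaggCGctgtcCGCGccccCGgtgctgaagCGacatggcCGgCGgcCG
Unc13b: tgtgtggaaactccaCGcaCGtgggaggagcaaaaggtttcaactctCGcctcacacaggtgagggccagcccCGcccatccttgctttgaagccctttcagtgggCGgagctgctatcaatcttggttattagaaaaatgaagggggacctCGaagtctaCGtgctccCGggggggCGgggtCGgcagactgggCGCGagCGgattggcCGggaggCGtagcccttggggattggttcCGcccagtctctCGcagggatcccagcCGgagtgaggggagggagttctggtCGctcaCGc
Unc13c: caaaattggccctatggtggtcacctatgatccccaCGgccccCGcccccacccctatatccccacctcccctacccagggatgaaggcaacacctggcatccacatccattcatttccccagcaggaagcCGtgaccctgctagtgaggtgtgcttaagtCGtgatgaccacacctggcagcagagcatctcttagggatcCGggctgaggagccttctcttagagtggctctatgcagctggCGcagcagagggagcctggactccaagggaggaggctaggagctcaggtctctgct

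The Unc13a window held 27 CG dinucleotides, the Unc13b window 20 and the Unc13c window 6, against a median of 7 over 32851 promoters of the same length. The observed over expected CG ratio was 0.957 for Unc13a, 0.71 for Unc13b and 0.23 for Unc13c, at a like GC content of 61.3%, 62.0% and 59.3%. The motif GGGCGG, searched on both strands, was matched 2 times in Unc13a, 4 times in Unc13b and 1 time in Unc13c, and 35.7% of all such promoters hold it. The motif TATAAA, searched on both strands, was matched in none of the 9 member promoters found, against 13.6% of all promoters. Among the others, Rims1 had 26 CG dinucleotides, Rims3 11, Bsn 38, Pclo 35, Erc2 31 and Ppfia2 20. Rims2 had no entry. Motif matches are descriptions of these letters only, and no measurement in these libraries bears on binding at them.

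Unc13a was the most abundant of the 10 genes and Unc13c the least abundant in all 4 groups. In the exon 7 wild types the order of mean scaled FPKM was Unc13a, Rims1, Bsn, Pclo, Erc2, Ppfia2, Unc13b, Rims2, Rims3 and Unc13c. Rims1, Bsn, Pclo and Erc2 each overlapped their neighbour in that order, as did Rims2 and Rims3, while the remaining neighbours had separate ranges. In the exon 6-7 wild types the order was Unc13a, Bsn, Rims1, Ppfia2, Erc2, Pclo, Rims3, Unc13b, Rims2 and Unc13c, and the first 5 genes formed a chain of overlapping ranges.

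**Figure D1:**
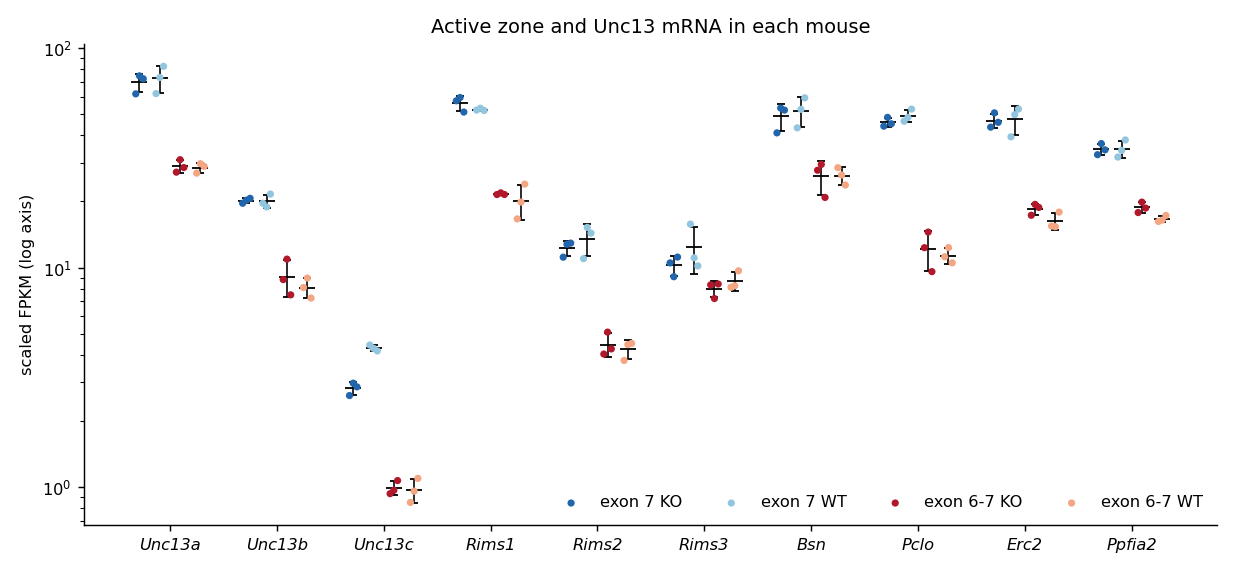
Scaled FPKM of the 10 genes in each mouse (points), with the group mean (horizontal line) and SD (error bars, n = 3), on a log axis, by group. Unc13c lies lowest in every group, at a mean of 2.81 in exon 7 knockouts, 4.29 in exon 7 wild types, 0.988 in exon 6-7 knockouts and 0.966 in exon 6-7 wild types.

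Unc13c (ENSMUSG00000062151; chromosome 9, 73479422 to 73968966, minus strand, mm10) encodes Munc13-3. It was at 2.61, 2.97 and 2.86 scaled FPKM in the exon 7 knockouts KO969, KO990 and KO994, against 4.43, 4.28 and 4.17 in the wild types WT628, WT993 and WT999. Every exon 7 knockout lay below every wild type, with means of 2.81 ± 0.185 and 4.29 ± 0.134 (SD, n = 3 each), a ratio of 0.655. On the log2(scaled FPKM + 1) scale the difference was -0.47, a scale that understates the difference of a gene at this level. This is the difference Unc13c was picked for. Its rank restates that choice and is no support for it: Unc13c was 4 among 7570 lower genes by limma p, and 80 genes were lower by at least as much. No gene of the whole table passed an adjusted p of 0.05 in this comparison (0%; 492 at an unadjusted limma p under 0.05). In bulk tissue, fewer cells of a type and less RNA per cell cannot be told apart.

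In the exon 6-7 line Unc13c was at 0.931, 0.964 and 1.07 scaled FPKM in the knockouts KO776, KO777 and KO864, against 0.849, 0.956 and 1.09 in the wild types WT778, WT809 and WT865. These values overlapped, with a log2 difference of 0.02, an SE of 0.101 and a 95% interval of -0.20 to 0.24 (limma adjusted p = 0.9998). The difference between the lines' effects was not tested, since the exon 7 difference chose the gene.

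Because Munc13-3 is a protein of cerebellar granule cells, a list of 7 cerebellar markers was read beside it. Their summed level was 24.1 to 27.2 scaled FPKM in exon 7 knockouts and 28.7 to 43.1 in exon 7 wild types, so the groups did not overlap. Of 13 marker lists, 2 others also had groups apart in the exon 7 line: 4 astrocyte genes summed to 406 to 424 in knockouts and 353 to 386 in wild types, and 6 oligodendrocyte genes to 4470 to 4788 in knockouts and 4867 to 5126 in wild types. Their part in the Unc13c difference was not tested. The granule cell gene Gabra6 was at 0 in the 3 exon 7 knockouts, against 3.63 in WT628, 0 in WT993 and 0.0557 in WT999. The Purkinje cell gene Pcp2 was at 0.479 to 0.657 in the knockouts, against 4.29 in WT628, 0.552 in WT993 and 1.22 in WT999. Zic1 was at 9.805, 12.8 and 14.34 in the knockouts, against 11.62 in WT628, 16.39 in WT993 and 12.15 in WT999. Zic2 ran from 5.297 to 6.415 in the knockouts and from 5.907 to 6.603 in the wild types, so both genes overlapped. Cbln1 was at 6.302, 4.168 and 4.453 in the knockouts, against 9.74 in WT628, 6.28 in WT993 and 7.095 in WT999. Cbln3 was at 0.116, 0.0894 and 0.122 in the knockouts, against 2.483 in WT628, 0.124 in WT993 and 0.184 in WT999. Car8 was at 2.082, 1.742 and 1.376 in the knockouts, against 4.681 in WT628, 1.303 in WT993 and 1.598 in WT999. WT628 was the highest exon 7 mouse in each of the 7 markers except Zic1. Without WT628 the Unc13c difference was -0.46. The deposited libraries also split into 2 sets by 1 gene that was unlisted in 4 mice, 1 of each group. The Unc13c difference was -0.59 within the set of 4 mice and -0.42 within the other 8. The same list summed to 23.3 to 27.6 in exon 6-7 knockouts and 17.0 to 28.2 in exon 6-7 wild types.

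Unc13a (ENSMUSG00000034799; chromosome 8, 71624417 to 71671757, minus strand) encodes Munc13-1, the main priming isoform of forebrain. It was at 61.9, 74.8 and 72.6 scaled FPKM in exon 7 knockouts, against 62.1, 73.5 and 82.7 in exon 7 wild types. Among exon 6-7 mice it was at 27.2, 31.0 and 28.6 in knockouts and 26.9, 29.7 and 28.9 in wild types. The knockout and wild-type values overlapped in both lines. The log2 difference was 0.02 among exon 6-7 mice (SE 0.112, 95% interval -0.23 to 0.26) and -0.06 among exon 7 mice. The span of Unc13a overlaps that of Colgalt1 on the opposite strand, which reached 24.0 scaled FPKM. Whether their exons overlap was not checked. The sources used here give no strand setting, so reads from any sequence the pair shares cannot be told apart. The same holds for Ppfia2 with Acss3, which reached 1.10, and C230021G24Rik, which reached 0.905.

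Unc13b (ENSMUSG00000028456; chromosome 4, 43058953 to 43264871, plus strand) encodes Munc13-2. It averaged 20.2 ± 0.529 scaled FPKM in exon 7 knockouts and 20.0 ± 1.41 in exon 7 wild types (SD, n = 3 each), and 9.08 ± 1.72 in exon 6-7 knockouts and 8.10 ± 0.848 in exon 6-7 wild types. Its log2 difference was 0.01 among exon 7 mice and 0.14 among exon 6-7 mice (SE 0.121, 95% interval -0.13 to 0.40), and the groups overlapped in both.

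Of the summed scaled FPKM of Unc13a, Unc13b and Unc13c, Unc13a held about the same share in all groups. It was at 75.1 ± 1.40% in exon 7 knockouts, 74.8 ± 2.35% in exon 7 wild types, 74.3 ± 2.37% in exon 6-7 knockouts and 75.9 ± 1.49% in exon 6-7 wild types (SD, n = 3 each). The Unc13c share was 3.03 ± 0.0632% in exon 7 knockouts and 4.47 ± 0.654% in exon 7 wild types. It was 2.55 ± 0.315% in exon 6-7 knockouts and 2.57 ± 0.315% in exon 6-7 wild types, where an exact two-sided permutation test gave p = 0.9. The sum of Unc13a, Unc13b and Unc13c was 92.7 scaled FPKM in exon 7 knockouts, 97.1 in exon 7 wild types, 39.0 in exon 6-7 knockouts and 37.6 in exon 6-7 wild types. Unc13c was the smallest part of this sum in every group. Unc13d, left out of the sum, averaged less than Unc13c in every group. It was at 0.304 scaled FPKM in exon 7 knockouts, 0.356 in exon 7 wild types, 0.526 in exon 6-7 knockouts and 0.483 in exon 6-7 wild types.

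**Figure D2:**
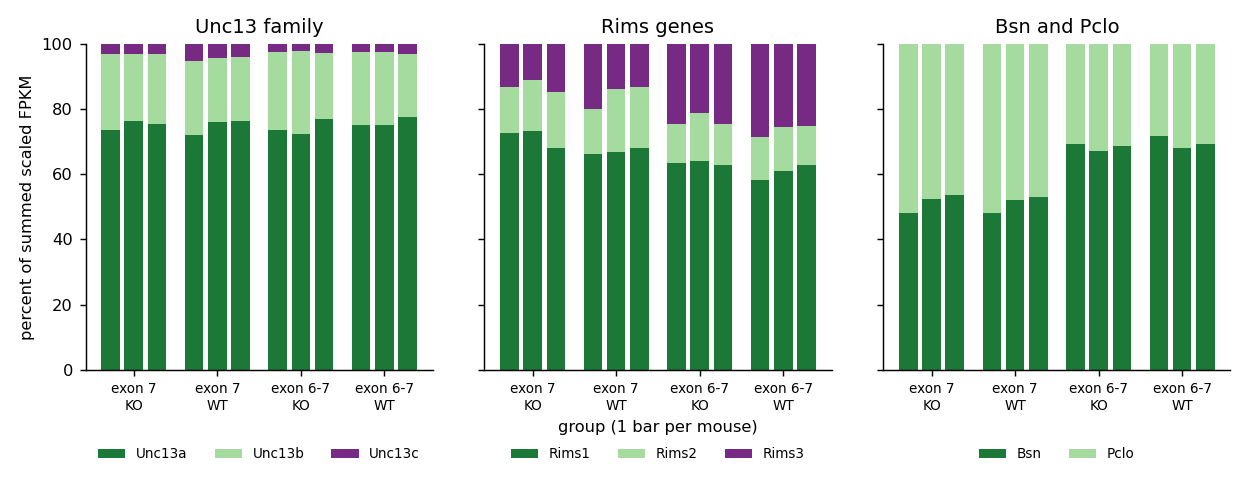
Share of each gene in the summed scaled FPKM of its panel (percent, y axis), 1 bar per mouse, by group. The panels sum Unc13a, Unc13b and Unc13c, then Rims1, Rims2 and Rims3, then Bsn and Pclo. Unc13a makes up most of its panel's sum in every mouse. Pclo makes up a mean of 48.9% of the Bsn and Pclo sum in exon 7 wild types against 30.2% in exon 6-7 wild types.

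Of the RIM genes, Rims1 and Rims2 encode the long forms, active zone scaffolds that couple vesicles to calcium channels. Rims1 (ENSMUSG00000041670; chromosome 1, 22286251 to 22805994, minus strand) was at 57.6, 59.6 and 51.1 scaled FPKM in exon 7 knockouts, against 52.2, 53.2 and 52.0 in exon 7 wild types. Among exon 6-7 mice it was at 21.5, 21.9 and 21.5 in knockouts and 16.7, 19.9 and 24.0 in wild types. The groups overlapped in both lines, and the log2 difference was 0.09 among exon 7 mice and 0.11 among exon 6-7 mice (SE 0.113, 95% interval -0.13 to 0.36). Shares were taken of the sum of Rims1, Rims2 and Rims3. That sum leaves out Rims4, at a mean of 12.1 scaled FPKM in exon 6-7 knockouts and 13.1 in their wild types. Rims1 held 63.5 ± 0.538% of the sum in exon 6-7 knockouts and 60.7 ± 2.28% in their wild types (exact permutation p = 0.1, the smallest that 3 against 3 can give, and 0.4 adjusted over 8 shares).

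Rims2 (ENSMUSG00000037386; chromosome 15, 39198261 to 39684372, plus strand) averaged 12.3 ± 0.983 scaled FPKM in exon 7 knockouts and 13.5 ± 2.25 in exon 7 wild types, and 4.45 ± 0.550 in exon 6-7 knockouts and 4.25 ± 0.412 in exon 6-7 wild types (SD, n = 3 each). Rims3 (ENSMUSG00000032890; chromosome 4, 120854816 to 120896579, plus strand), a short RIM form, was at 10.5, 9.08 and 11.2 in exon 7 knockouts, against 15.8, 11.1 and 10.2 in exon 7 wild types. The highest of these is WT628, the mouse that stood apart in several cerebellar markers: the Rims3 log2 difference was -0.23 with it and -0.05 without it. In the exon 6-7 line the log2 difference was 0.05 for Rims2 (SE 0.130, 95% interval -0.23 to 0.34) and -0.11 for Rims3 (SE 0.146, 95% interval -0.42 to 0.21).

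Bsn (ENSMUSG00000032589; chromosome 9, 108096022 to 108190384, minus strand) encodes bassoon. It was at 41.1, 53.3 and 52.2 scaled FPKM in exon 7 knockouts, against 43.3, 52.6 and 59.4 in exon 7 wild types, and at 27.8, 29.5 and 20.9 in exon 6-7 knockouts, against 28.5, 26.4 and 23.8 in exon 6-7 wild types. Pclo (ENSMUSG00000061601; chromosome 5, 14514918 to 14863459, plus strand) encodes piccolo. It was at 44.1, 48.4 and 45.2 in exon 7 knockouts, against 46.5, 48.3 and 52.8 in exon 7 wild types, and at 12.3, 14.5 and 9.58 in exon 6-7 knockouts, against 11.2, 12.3 and 10.5 in exon 6-7 wild types. Knockout and wild-type values overlapped for both genes in both lines. The log2 difference in the exon 6-7 line was -0.02 for Bsn (SE 0.154, 95% interval -0.36 to 0.31) and 0.07 for Pclo (SE 0.125, 95% interval -0.20 to 0.35), and in the exon 7 line -0.08 for Bsn and -0.10 for Pclo.

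Erc2 (ENSMUSG00000040640; chromosome 14, 27622428 to 28478537, plus strand) encodes the ELKS family protein CAST. It was at 43.6, 50.7 and 45.9 scaled FPKM in exon 7 knockouts, against 39.4, 49.8 and 52.8 in exon 7 wild types, and at 17.3, 19.4 and 18.8 in exon 6-7 knockouts, against 15.5, 15.4 and 17.9 in exon 6-7 wild types. Ppfia2 (ENSMUSG00000053825; chromosome 10, 106470339 to 106935952, plus strand) encodes liprin-alpha-2. It was at 17.8, 19.9 and 18.7 in exon 6-7 knockouts, against 16.2, 16.4 and 17.3 in exon 6-7 wild types, so every knockout lay above every wild type. In that line the log2 difference was 0.18 for Erc2 (SE 0.114, 95% interval -0.07 to 0.43) and 0.16 for Ppfia2 (SE 0.0878, 95% interval -0.03 to 0.36), and neither passed (limma adjusted p = 0.9998 for both, 0.609 at the lowest over the alternatives). With each mouse left out in turn, the Ppfia2 difference was 0.13 to 0.20. With trends on transcript length and GC content removed, Ppfia2 was at 0.07 and Erc2 at 0.10, and Rims3 at -0.14 was then farthest from 0. Of the 13 marker lists, 3 had knockout sums below all wild-type sums in that line: oligodendrocytes at 4463 to 4612 in knockouts and 5070 to 6382 in wild types, CA1 at 171 to 182 in knockouts and 193 to 197 in wild types, and CA2 at 54.7 to 60.1 in knockouts and 60.7 to 62.1 in wild types. Their part in these differences was not tested. In the exon 7 line Ppfia2 was at 32.7, 36.7 and 34.4 in knockouts, against 31.9, 34.2 and 38.2 in wild types, with a log2 difference of -0.0037.

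Over the list, 0 of 10 genes passed an adjusted p of 0.05 between exon 6-7 knockouts and wild types in limma, beside 0.0141% of all 14218 genes tested, and 0 had an unadjusted p under 0.05. The members' median log2 difference was 0.06, with 8 above 0 and 2 below, against -0.0020 over all genes. Ppfia2 alone had knockout values all above the wild types, beside 5.01% of all genes. In the exon 7 line the median was -0.07, with 2 above 0 and 8 below, the picked Unc13c among the latter. The knockout differences of all genes also followed transcript length, with a Spearman's rho across 14058 genes of -0.19 among exon 7 mice and 0.37 among exon 6-7 mice, and the members are long. With trends on length and GC content removed, the members' median was -0.03 among exon 7 mice and 0.0018 among exon 6-7 mice. In the exon 7 line only Unc13c had knockout values all below the wild types, beside 3.77% of all genes. It was picked for that difference, so this count was given by the choice and is no result about the members. The targeted gene Shank2 was at 6.22, 7.02 and 6.15 scaled FPKM in exon 6-7 knockouts, against 14.4, 13.8 and 14.9 in wild types (log2 difference -1.04, limma adjusted p = 0.0111). In the exon 7 line Shank2 averaged 40.4 ± 6.29 in knockouts and 40.8 ± 4.24 in wild types, so gene-level values do not show that deletion.

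**Figure D3:**
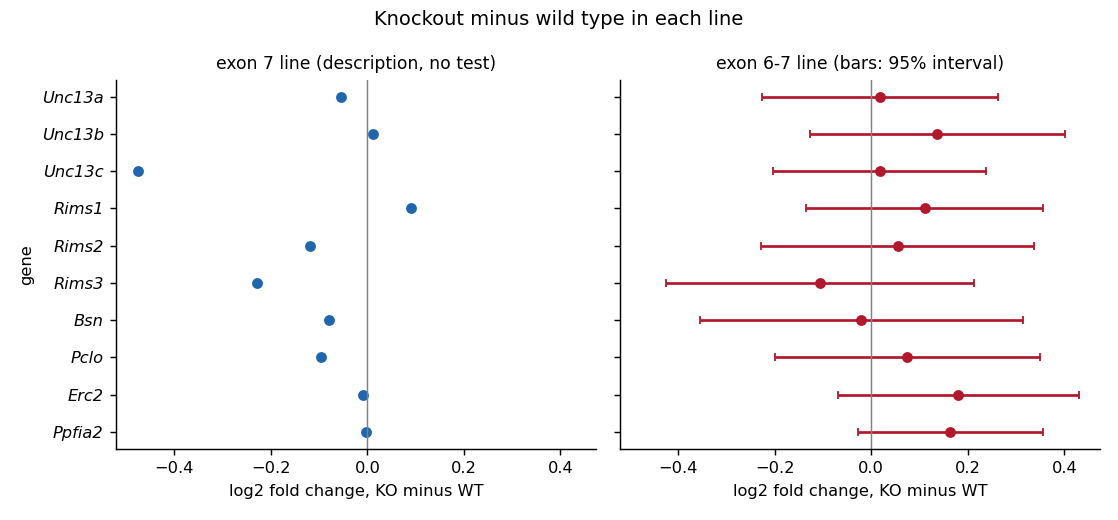
Log2 difference of each gene, knockout minus wild type, in exon 7 mice (description) and exon 6-7 mice (points with 95% intervals). The exon 6-7 intervals all include 0, and Unc13c at -0.47 lies farthest from 0 in the exon 7 line.

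Of 26 other active zone genes, 25 were tested and 0 passed between exon 6-7 knockouts and wild types, with a median log2 difference of -0.02. The values ran from -0.18 for Ppfia3, another liprin-alpha, to 0.30 for Baiap3, an Unc13-related gene. The RIM-binding protein gene Rimbp2 was at 0.19 and Ptprf, a LAR receptor phosphatase gene, at 0.15. Cadps2, a CAPS family gene of dense-core vesicle release, was at -0.16 and Tprgl, a synaptic vesicle protein gene, at -0.12.

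The members also varied between mice of 1 group. KO777 was the highest mouse of the exon 6-7 line in 7 of 10 members, against 13.2% of all genes, and WT778 was the lowest in 5, against 15.5% of all genes. In the exon 7 line WT999 was the highest in 6 members, against 16.7% of all genes, KO969 the lowest in 4, against 20% of all genes, and WT628 the lowest in 3, against 21.7% of all genes. The median member deviation from the line mean was 0.16 in KO777 and 0.15 in WT999, on the log2 scale. It was -0.09 in WT778, -0.10 in KO969 and -0.08 in WT628. These last mice are in the library set of 4 mice with 1 gene unlisted, and KO777 and WT999 are in the other set. KO776, also in the set of 4, was the lowest in 0 members, at a median deviation of 0.0075. The part of the library set was not tested.

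**Figure D4:**
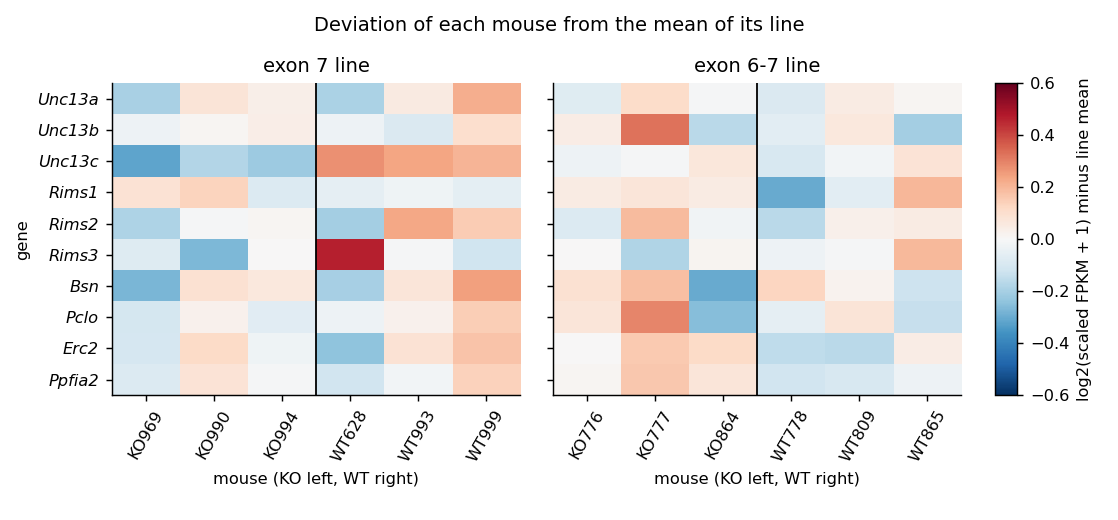
Deviation of each gene from its line's mean, log2(scaled FPKM + 1), in each mouse. KO777 and WT999 are above the line mean in most genes. Unc13c separates exon 7 knockouts from exon 7 wild types, the difference it was picked for.

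Genes whose pattern over the 12 mice was most like Unc13c, by Pearson's r on values centred on each line's mean over 14063 genes, were Phactr1 (r = 0.90, Spearman's rho = 0.90), Mkx (0.87 and 0.83), Stac2 (0.86 and 0.91), the pseudogene Rpl39-ps (0.85 and 0.76) and Mfap3l (0.83 and 0.78). Reads of Rpl39-ps may be shared with its parent gene. Within the exon 6-7 line r was 0.81 for Phactr1, -0.02 for Mkx, 0.96 for Stac2, -0.43 for Rpl39-ps and 0.61 for Mfap3l, over 6 mice. Phactr1, a regulator of actin and protein phosphatase, averaged 99.1 ± 7.60 scaled FPKM in exon 7 knockouts and 128.6 ± 13.6 in exon 7 wild types (SD, n = 3 each). The most opposite genes were Fibp (r = -0.87), Gm17322 (-0.86) and Tmem114 (-0.85). Of the other members Rims3 came nearest, at r = 0.52. These mice share their libraries and the knockout contrast that chose Unc13c, so the values are descriptions.

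Between the lines, all 9 members other than Unc13c were higher in exon 7 wild types than in exon 6-7 wild types in limma, beside 33.9% of all genes called higher and 33.2% called lower. Pclo had the largest difference, at 49.2 ± 3.23 scaled FPKM in exon 7 wild types and 11.3 ± 0.920 in exon 6-7 wild types (SD, n = 3 each; log2 difference 2.02, SE 0.125, limma adjusted p = 9.40e-08). The smallest was Rims3, at 12.3 ± 3.01 in exon 7 wild types and 8.68 ± 0.850 in exon 6-7 wild types (SD, n = 3 each; log2 difference 0.44, SE 0.146, limma adjusted p = 0.0177), which was not called without WT628 (0.27), without WT778 (0.40) or without WT809 (0.41). That call was also lost in the 8 mice of the larger library set (0.23, limma adjusted p = 0.162), on FPKM as deposited (0.30), after quantile scaling (0.30) and with trends on length and GC content removed, and it held in 18 of 25 alternatives tested. The other log2 differences were 1.31 for Unc13a, 1.21 for Unc13b, 1.35 for Rims1, 1.46 for Rims2, 0.95 for Bsn, 1.48 for Erc2 and 1.02 for Ppfia2. Between the knockouts of the lines, 8 of 9 members were called higher in exon 7 knockouts, beside 31.4% of all genes, with Rims3 at 0.32 (limma adjusted p = 0.0738). Unc13c, as a description, was 4.44 times higher in exon 7 wild types and 2.85 times higher in exon 7 knockouts than in the same genotype of the exon 6-7 line. With trends on length and GC content removed, its log2 difference was 0.22 between the wild types, against 1.43 before, and -0.12 between the knockouts, against 0.94 before, so the direction between the knockouts turned.

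These line differences followed transcript length over the whole table. Spearman's rho between length and the difference of the wild types was 0.70 across 14058 genes, which are not independent replicates, and -0.44 with GC content. The members' longest transcripts ran from 4800 bases for Rims2 to 20084 for Pclo, with a median of 8840.5 against 3054 over all tested genes. The median difference was -0.96 for genes under 1000 bases, 0.50 for 4000 to 6000 bases and 1.41 for 10000 bases or more. Of the 9 tested members, 4 lay above the median of their length class (Rims1, Rims2, Pclo and Erc2) and 5 below it (Unc13a, Unc13b, Rims3, Bsn and Ppfia2). The mitochondrial share of summed FPKM was 10.3 to 14.3% in exon 7 mice and 6.22 to 7.39% in exon 6-7 mice. The line and any difference in how its libraries were made cannot be told apart.

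**Figure D5:**
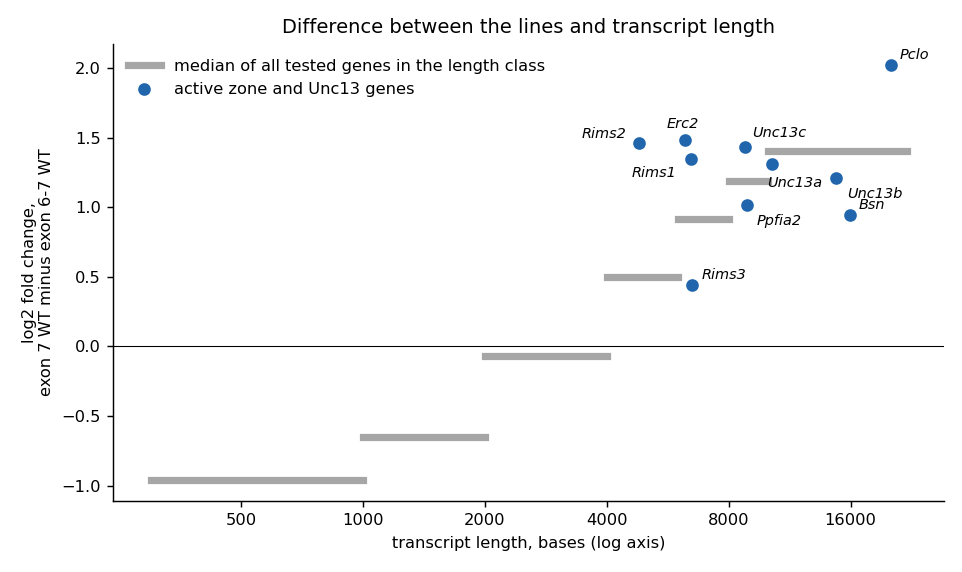
Log2 difference of each gene, exon 7 wild types minus exon 6-7 wild types, against transcript length in bases on a log axis, with the median of all tested genes per length class (grey). Longer classes have higher medians, up to 1.41, and Pclo lies highest of the members at 2.02.

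With the trends on length and GC content removed, 5 of 9 members stayed called higher in exon 7 wild types in limma, beside 21.6% of all genes: Rims2 at 0.90, Erc2 at 0.57, Pclo at 0.50, Rims1 at 0.43 and Unc13a at 0.40 (adjusted p = 0.000116, 0.00226, 0.000697, 0.00481 and 0.00118). Bsn was then at 0.03 (limma adjusted p = 0.825), Rims3 at -0.12 (0.598), Unc13b at -0.26 (0.0605) and Ppfia2 at -0.33 (0.0670). Between the knockouts 5 of 9 members stayed called higher, beside 19% of all genes. On scaled FPKM, with the trends not removed, the paralog pair Bsn and Pclo differed in share as well. Pclo held 48.9 ± 2.51% of their sum in exon 7 wild types and 30.2 ± 1.85% in exon 6-7 wild types (SD, n = 3 each). Pclo has 45.45% GC over 20084 bases and Bsn 59.76% over 15938 bases. The split was not tested, and shares were not computed with the trends removed.

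Without removal of the trends, 17 of the 25 other active zone genes were called higher and 4 lower between the wild types in limma, beside 33.9% and 33.2% of all genes. With the trends removed, 12 were called higher, beside 21.6% of all genes, and 5 lower, beside 23.5%. Without removal, the scaffold kinase Cask (1.83), the receptor phosphatase Ptprd (1.83) and Rimbp2 (1.996) were called higher, and Ppfia3 (-0.99), the vesicle protein gene Tprgl (-0.55) and Baiap3 (-1.06) lower. The largest difference was that of Cacnb4, at 2.458, also called higher.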

How the data were processed

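RNA from the hippocampi of 12 mice was sequenced after poly(A) selection, per the labels' protocols. The authors deposited FPKM per gene in 1 table per mouse, with Ensembl release 74 gene IDs per the file headers. CASAVA, GSNAP, Cufflinks and the mm10 build are named, per the submitters' processing notes, with no role or order. The sources used here give no counting or strand settings. FPKM hold no whole read counts, so depth per sample is unknown and no counting interval is given.

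A gene not listed in a table was taken as 0. Small RNAs (110 genes) were left out by biotype, and values were scaled by the median of ratios over 12511 genes. The 14218 genes averaging 1 FPKM or more were fitted on log2(scaled FPKM + 1) with limma-trend, 1 mean per group over all 12 mice, 8 residual degrees of freedom, two-sided, with Benjamini-Hochberg adjustment over all genes at 0.05. Fold changes on this scale understate those of low genes. The script was tested on simulated data. GENCODE M21, on the same build, gave the length and GC content of each gene's longest protein-coding transcript. Exact permutation tests were two-sided over mice. Replicates are separate mice by number. The members and all gene lists were chosen with earlier results of these data known. Genes beyond the list were named by rule: of the other active zone genes the 3 with the smallest p in each direction, with the extremes, and the 5 most and 3 least like Unc13c. Alternatives changed the pseudocount, filter, scaling, weights, library set and length trends, and left out each mouse. Library set A is the 4 mice, 1 per group, in which 1 gene abundant in the others was unlisted, and set B the other 8.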

Additional observations from a re-analysis of the deposited data

How the results depend on the processing

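No paired analysis was possible because the mouse numbers of the groups are all different. In the exon 6-7 knockout comparison 0 of 10 members and 0 of 25 other active zone genes were called under every alternative that gave a test, and leaving out each mouse in turn gave a members' median log2 difference of -0.0065 to 0.12. In the exon 7 knockout comparison that median was -0.13 to 0.03 when each mouse was left out, and the Unc13c difference, the value that chose the gene, was -0.60 with a pseudocount of 0.1 and -0.25 with one of 5. The median between the wild types, 1.31, was 1.22 to 1.36 with each mouse left out, 0.996 with a pseudocount of 5, 1.16 on FPKM as deposited, 1.47 rescaled to TPM, 1.18 in set A and 0.40 with length and GC trends removed, where 5 members were called. The median between the knockouts, 1.24, was 1.19 to 1.31 with each mouse left out, 0.87 with a pseudocount of 5, 1.09 as deposited, 1.39 as TPM and 0.40 with the trends removed, where 5 were called. Between the wild types, values as deposited shifted the median of all genes to -0.135 and TPM to 0.128. Of the 9 members, 8 to 9 were called with each mouse left out in both. For the other active zone genes the wild-type median, 0.75, was 0.67 to 0.86 with each mouse left out, 0.59 as deposited, 0.90 after quantile scaling, 0.90 as TPM, 0.57 in set A and 0.26 with the trends removed. Directions of called values turned only with the trends removed: Unc13b (-0.26), Rims3 (-0.12) and Ppfia2 (-0.33) between the wild types, and Unc13b (-0.23), Bsn (-0.0092) and Ppfia2 (-0.33) between the knockouts. The cause was not tested. The unknown depth limits what can be said of Unc13c in the exon 6-7 line.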
